A study of Mus musculus with 6 samples.

Results

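The histone genes of 3 kinds of mouse T cell were compared: those that lie in the histone gene clusters and those that encode single histone variants. Members were taken from a table of counts per gene as the protein-coding genes whose symbols begin with Hist1h to Hist4h (the clusters) or with H1f, H2af or H3f (the variants), with no use of their measured values. They came to 82 of the 54532 genes listed, of which 67 are clustered and 15 are single variants. The clustered genes comprise 6 of H1, 18 of H2A, 18 of H2B, 12 of H3 and 13 of H4. Another 9 symbols of the same form belong to pseudogenes or an antisense RNA and were left out.

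Histones package DNA, with H2A, H2B, H3 and H4 forming the nucleosome core and H1 binding the linker. Most clustered genes are transcribed in S phase, when new DNA has to be packaged, and their messages end in a conserved stem-loop in place of a poly(A) tail. Single variants are mostly made throughout the cell cycle from polyadenylated messages, and some are placed at particular sites, such as promoters or the centromere. Some clustered genes also yield polyadenylated messages that run on past the stem-loop.

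RNA sequencing libraries were made from naive T, Th17 and Treg cells, with 2 libraries of each cell type and so 6 altogether. A naive T cell is one that has yet to meet its antigen, Th17 cells are helper cells that make interleukin 17, and Treg cells suppress immune responses through the transcription factor Foxp3. Every library was labelled wild type and untreated, with thymus as the tissue. The labels do not give age or sex, whether cells were cultured, how often they divided, or whether libraries came from separate animals, so p-values cover no more than the differences among libraries, possibly technical ones. The library kit is named for mRNA, and its priming is given nowhere in the sources used here. Libraries are called by the cell type and the number in the count table, 1 or 5, which is used here only as a name.

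Total counts ranged from 16458939 to 17901331 per library, and replicates of a type differed by more than sampling noise. Il17a, a cytokine that marks Th17 cells, was at 330 and 500.4 CPM (gene counts scaled to a common library size by TMM) in the Th17 libraries and at 0 counts in the other 4, and Treg markers (Foxp3, Il2ra, Ikzf2, Ctla4) summed to 3900.1 and 3678 CPM in the Treg and 2015 and 2004 CPM in the Th17 libraries. Of these 4, Ctla4 was highest in the Th17 libraries. Il2ra, at 1766 and 1665 CPM, gave most of the Th17 sums. Foxp3 was at 1009 and 1009 CPM in Treg, 0.910 and 0.484 in Th17, and 15.1 and 13.5 CPM in naive libraries. In naive libraries the 4 Treg markers summed to 67.0 and 60.4 CPM. Markers of B cells (4 of 4 detected) summed to 39.3 and 46.2 CPM in naive libraries and to between 3.64 and 6.53 CPM in the other 4. Markers of myeloid cells (4 genes) summed to 20.2 and 23.0 CPM in naive libraries and to between 0.572 and 2.29 CPM in the others. Both lists were therefore high in the libraries in which most clustered histone genes were high, and their part in the histone results was not tested. Immature thymocyte markers summed to 30.9 and 38.3 CPM in naive, 13.3 and 21.4 in Th17, and 21.1 and 26.7 CPM in Treg libraries. Dntt and Cd8b1 were highest in naive libraries, but Rag1 and Cd8a in Treg libraries. Erythroid markers summed to 1.10 and 1.66 CPM in naive, 23.6 and 0 in Th17, and 0.0572 and 8.41 CPM in Treg libraries. The part of these 2 lists was not tested either. Thymic epithelial markers reached 81.7 and 68.8 CPM in Treg libraries mostly through Epcam (80.5 and 68.7 CPM), with Krt5 at 18 and 0 counts, Krt8 at 3 and 2, and Foxn1 at 0 counts in all 6 libraries.

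The stem-loop was looked for first, since it separates the messages of the clusters from those of the variants. A match to the histone stem-loop consensus, 16 bases long, was found in the annotated transcripts (GENCODE M21) of 46 of the 67 clustered genes and of 1 of the 15 variants, H2afx. Of 21901 protein-coding genes, 64 held a match, and 47 of those were members. The stem-loops below belong to clustered genes described later, and H2afx is shown because it is the variant with a match. Capitals mark the 16 bases of the match and 7 bases are given on each side, 5′ to 3′ along the transcript.
Hist1h1c: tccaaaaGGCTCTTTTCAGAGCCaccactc
Hist2h2ac: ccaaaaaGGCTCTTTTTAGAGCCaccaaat
Hist3h2ba: acccaaaGGCTCTTTTCAGAGCCaccttcc
Hist1h4i: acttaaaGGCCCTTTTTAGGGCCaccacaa
Hist1h4n: aactaaaGGCCCTTTTCAGGGCCatccaat
Hist4h4: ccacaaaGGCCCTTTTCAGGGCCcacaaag
H2afx: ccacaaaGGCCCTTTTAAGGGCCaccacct
The form shown for Hist1h1c and Hist3h2ba was the most common, in 26 genes. After the stem-loop the annotated transcript ran on for 840 bases in Hist1h1c, 169 in Hist3h2ba, 330 in Hist1h4i, 2445 in Hist4h4 and 822 in H2afx, but for only 57 in Hist2h2ac and 31 in Hist1h4n.

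Clustered histone genes gave few counts. Of the 67, 10 had no count in any library, 19 had 1 to 14 counts over the 6 libraries together, and the median total was 19 counts. Hist1h1c alone held 25.0% of all counts in clustered genes, and Hist1h1c, Hist2h2be and Hist1h4i together held 50.5%. The 15 variants had a median total of 4681 counts, although H1fnt, H2afb1, H2afb2 and H2afb3 had none and H1foo had 3.

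The level per length differed with the annotated end of the transcript. For the 23 clustered genes whose transcript ran more than 100 bases past the stem-loop, the median level over the 6 libraries was 0.484 CPM per kb, and they held 64.0% of the clusters' counts. For the 23 genes whose transcript ended within 100 bases of it, the median was 0.261 CPM per kb and the share of counts was 10.03%. The 21 genes with no match had a median of 0.0673 CPM per kb and 26.0% of the counts, of which Hist2h2be gave most. Many of these 21 have short annotated transcripts, such as 393 bases in Hist1h2ai, 381 in Hist1h2bn and 312 in Hist1h4k. Others are longer, with 2620 bases in Hist2h2be. A stem-loop beyond the annotated end would be missed, so this group reflects the annotation and may not lack a stem-loop. The share of a gene's 50-base stretches found also in another gene's transcript, on either strand, rose over the groups in the order given. The medians were 24.6%, 60.4% and 85.8%. Genes annotated over the same place count here as another gene, so a shared stretch need not lie at several places. The sources used here do not give how the authors' counting treated reads that fit several genes, so the part of shared sequence in these levels was not tested. Hist1h1c at 9.77, Hist3h2ba at 7.99 and Hist1h4i at 7.96 CPM per kb were the highest clustered genes, against 201 for H2afz and 189 for H3f3b.

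**Figure D1:**
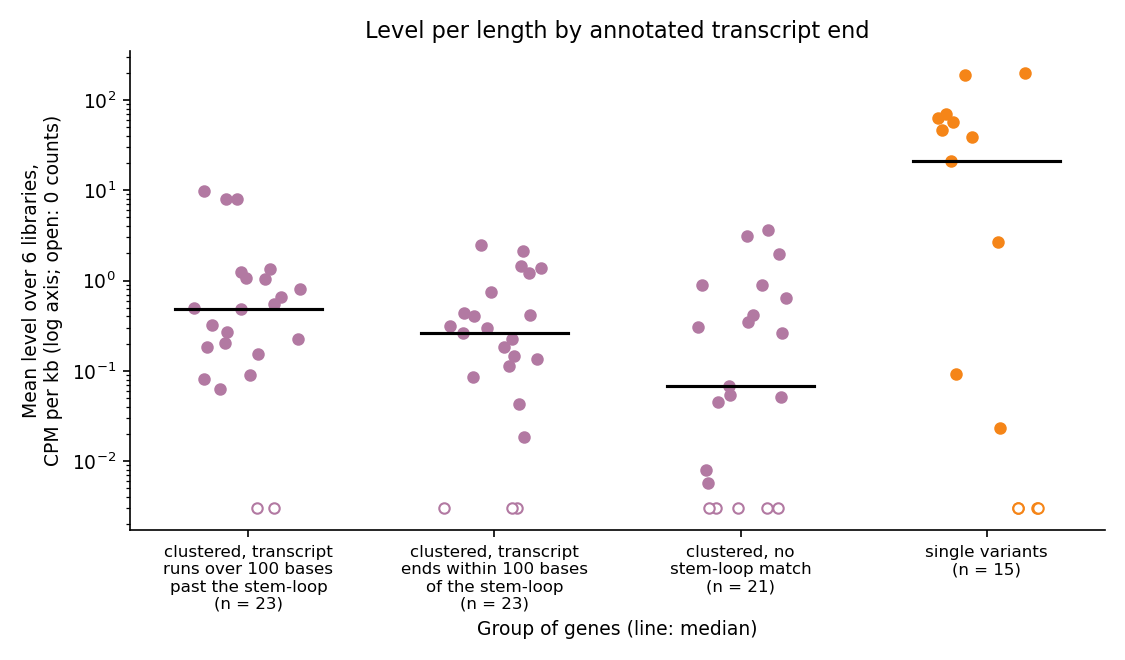
Mean level over the 6 libraries in CPM per kb of gene length (log axis) for each of the 82 members, grouped by how the annotated transcript ends; open circles mark genes with 0 counts, and lines are medians. The medians of the 3 clustered groups are 0.484, 0.261 and 0.0673 CPM per kb, while H2afz and H3f3b lie at 201 and 189.

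Summed over all 67 genes, the clusters were at 85.5 CPM in naive library 1 and 149.9 in naive library 5. They were at 46.3 and 28.7 CPM in the Th17 libraries and at 26.9 and 26.3 CPM in the Treg libraries. Both naive libraries thus lay above the other 4, and the Treg libraries were the lowest. The means, 118 in naive, 37.5 in Th17 and 26.6 CPM in Treg cells, stood 3.14-fold lower in Th17 and 4.43-fold lower in Treg than in naive cells. In bulk RNA, fewer cells making a message and less message per cell cannot be told apart. As the priming is not given, it is not known whether messages without a poly(A) tail were counted. Their part in these sums was not tested. The 15 variants summed to 1524 and 2087 CPM in naive, 1943 and 1913 in Th17, and 1657 and 1899 in Treg libraries, ranges that overlap between naive cells and both other types. The ratio of the variants' sum to the clusters' sum was 17.8 and 13.9 in naive, 41.9 and 66.7 in Th17, and 61.6 and 72.2 in Treg libraries, so the naive libraries had the lowest ratios.

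By family, clustered H1 summed to 25.9 and 45.8 CPM in naive, 16.1 and 6.18 in Th17, and 5.90 and 4.48 CPM in Treg libraries. Clustered H4 summed to 14.3 and 37.9 CPM in naive, 9.80 and 5.80 in Th17, and 4.64 and 5.68 CPM in Treg libraries. Clustered H2B summed to 34.6 and 45.7 CPM in naive, 14.6 and 11.8 in Th17, and 10.8 and 10.9 CPM in Treg libraries. In these 3 families, as in H2A, the naive libraries did not overlap with the other types. Clustered H3, with sums of 2.00 and 5.88 CPM in naive, 2.89 and 1.77 in Th17, and 1.49 and 1.75 CPM in Treg libraries, overlapped between naive and Th17 cells.

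Genes of S phase were given beside them. The 20 genes of the list, among them the Mcm helicase subunits, Pcna and the ribonucleotide reductase genes, summed to 674 and 804 CPM in naive, 3871 and 3337 in Th17, and 1659 and 2133 CPM in Treg libraries. Naive libraries were thus the lowest for S phase genes and the highest for the clustered histone messages that were counted. In Th17 against naive cells all 20 rose, with a median log2 fold change of 3.05, where 29.3% of all genes tested did. In Treg against naive cells 19 rose, with a median of 1.81, beside 23.6% of all genes. In Treg against Th17 cells 17 of the 20 were lower, beside 19.4% of all genes.

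**Figure D2:**
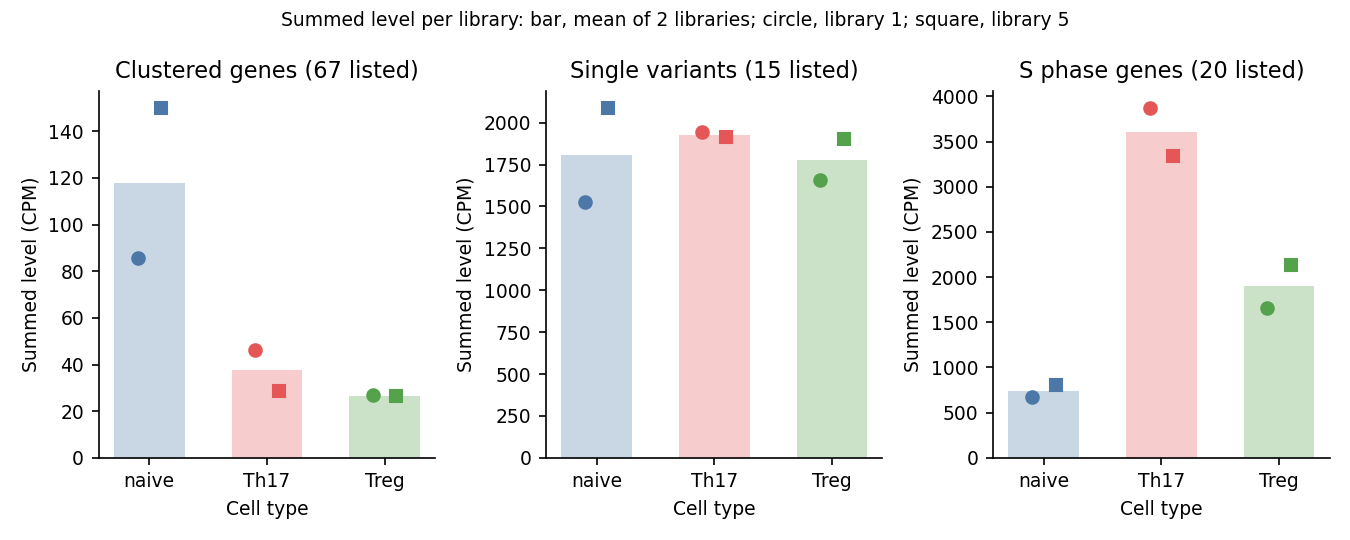
Summed level in CPM of the 67 clustered genes, the 15 single variants and 20 S phase genes by cell type; bars are means of 2 libraries, circles are library 1 and squares library 5. The clusters are highest in naive libraries (85.5 and 149.9 CPM), where the S phase genes are lowest (674 and 804 CPM), while the variants' sums overlap.

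Gene by gene, 20 clustered genes and 9 variants passed the filter on low counts and were tested with edgeR's quasi-likelihood test, adjusted over 15543 genes and called at an adjusted p under 0.05. The other 47 clustered genes had at most 52 counts each over the 6 libraries, and the other 6 variants at most 22. Of the 20, 9 reached the filter's level of 0.584 CPM in both libraries of naive cells alone, so they had to be higher there, and their calls are given as a description. Another 2 reached it in Th17 cells alone, 4 in 2 types, 4 in all types and 1 in none. The filter thus also bears on some calls among the genes outside these 9, which are likewise a description. Comparisons with naive cells share the same 2 naive libraries.

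In Th17 against naive cells, 57.7% of all genes tested were called, 29.3% higher and 28.4% lower. None of the 20 clustered genes was called higher by edgeR, also at an unadjusted p under 0.05 or with DESeq2, where the counts were 0 and 0, and 12 were lower. Of these 12, 8 were among the 9 genes that passed the filter through naive cells alone. Of the other 11 tested genes, 4 were lower, Hist1h1c, Hist2h2be, Hist3h2a and Hist3h2ba, a share of 36.4% beside 28.4% of all genes. Of these 4, Hist3h2a and Hist3h2ba passed the filter without reaching its level in both Th17 libraries. The log2 fold changes of the 11 had a median of -0.67, against -0.03 over all genes. Libraries did not overlap in 5 of the 11, against 78.8% of all genes. In Treg against naive cells, 43.4% of all genes were called, 23.6% higher and 19.9% lower. Of the clustered genes, 0 were called higher (also 0 at an unadjusted p under 0.05 and 0 with DESeq2) and 14 lower, among them all 9 that passed the filter through naive cells alone. Of the other 11, 5 were lower, Hist1h1c, Hist1h1d, Hist1h2be, Hist2h2be and Hist3h2ba, a share of 45.5% beside 19.9% of all genes. Of these 5, Hist1h1d and Hist1h2be reached the filter's level in neither Treg library. The call of Hist1h1d ended without naive library 5 or without Treg library 5, with adjusted p up to 0.468. The 11 had a median of -1.18 against -0.00 over all genes, and the groups did not overlap in 8 of them, against 71.7% of all genes. The genes lower in both comparisons numbered 11: Hist1h1c, Hist1h1e, Hist2h2ac, Hist2h2be, Hist3h2ba, Hist1h3a, Hist1h4c, Hist1h4d, Hist1h4n, Hist2h4 and Hist4h4. In Treg against Th17 cells, 38.4% of all genes were called, 19.0% higher and 19.4% lower, but just 3 of 20 clustered genes, 1 higher and 2 lower, with no overlap in 6 of 20, against 72.5% of all genes. Of these 3, Hist3h2a and Hist1h2be reached the filter's level in neither library of the type in which they were lower.

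**Figure D3:**
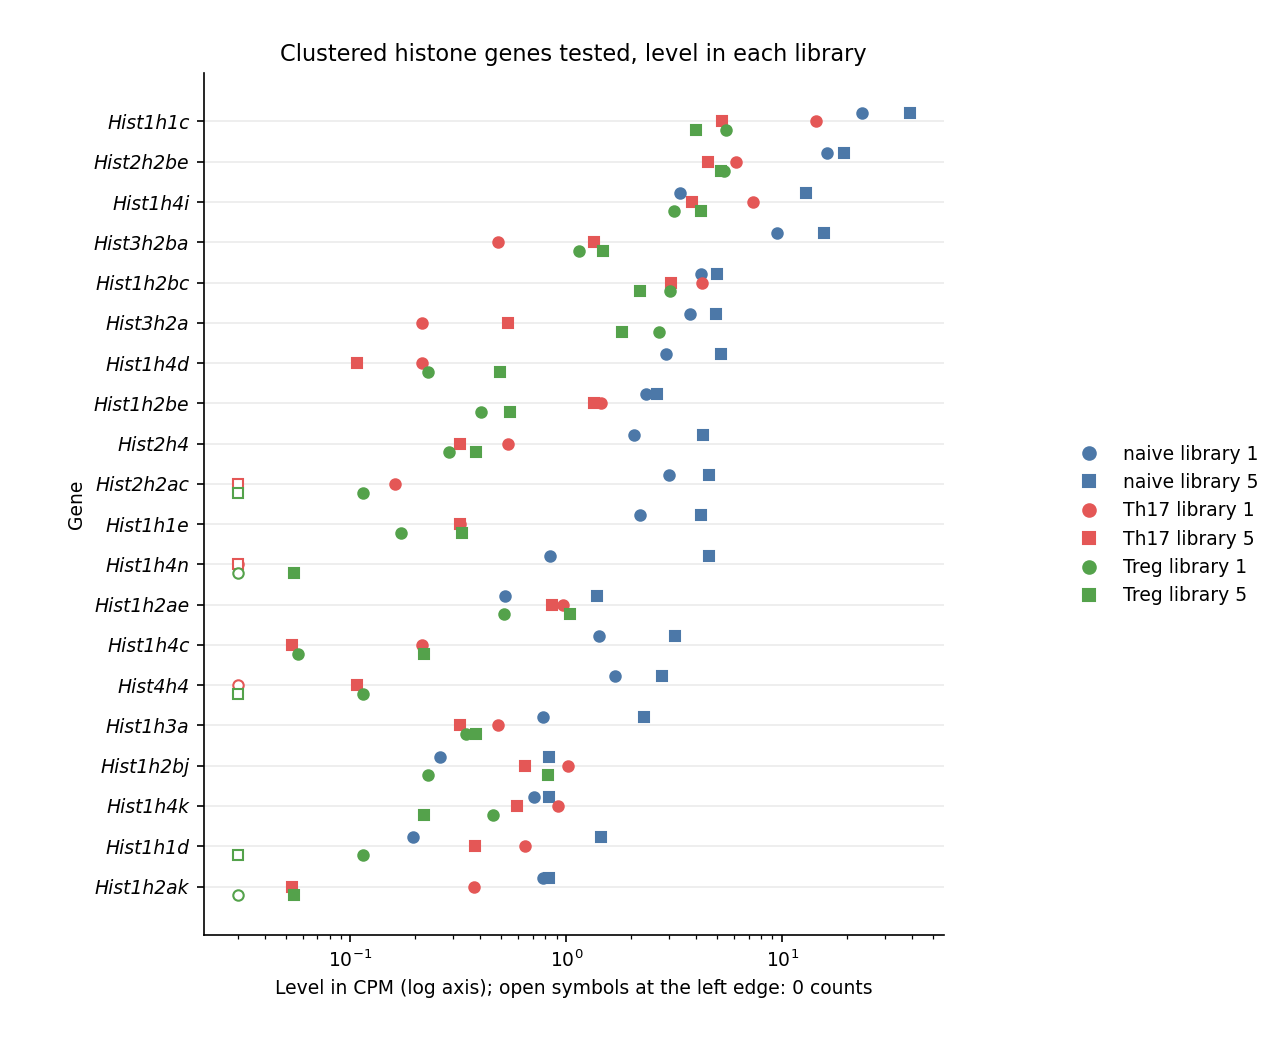
Level in CPM (log axis) of each of the 20 tested clustered genes in the 6 libraries, with colour for cell type, circles for library 1, squares for library 5 and open symbols at the left edge for 0 counts. Hist1h1c, Hist2h2be and Hist3h2ba lie to the right in both naive libraries, whereas Hist1h4i at 3.36 and 12.9 CPM in naive cells overlaps with the other types.

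Among linker histones, Hist1h1c, a somatic H1 gene and the most abundant clustered message here, was at 23.4 and 39.0 CPM in naive libraries. It was at 14.3 and 5.27 CPM in Th17 and at 5.49 and 3.98 CPM in Treg libraries. Naive cells were above both other types without overlap, while the Th17 and Treg libraries overlapped. The log2 fold change was -1.67 ± 0.37 (SE, adjusted p = 0.00149) in Th17 and -2.72 ± 0.40 (adjusted p = 6.96e-05) in Treg against naive cells. Without Th17 library 1 the Th17 value was -2.55. Treg cells were lower than Th17 cells by -1.05 ± 0.39 (adjusted p = 0.0488), a call that ended when any library but Th17 library 5 was left out, with adjusted p up to 0.817. Hist1h1e, a second somatic H1 gene, was at 2.20 and 4.22 CPM in naive, 0.321 and 0.322 in Th17, and 0.172 and 0.328 CPM in Treg libraries, and fell by 3.29 and 3.64 on the log2 scale. Its annotated exons share 496 bases on the same strand with Hist1h2be, an H2B gene at 2.33 and 2.63 CPM in naive, 1.45 and 1.34 in Th17, and 0.401 and 0.546 CPM in Treg libraries. Reads from the stretch that both genes cover cannot be told apart. Hist1h2be passed the test in Treg against naive cells (-2.37 ± 0.54, adjusted p = 0.00253) and in Treg against Th17 cells (-1.54 ± 0.54, adjusted p = 0.0367), but in Th17 against naive cells it stood at -0.82 (adjusted p = 0.154). Its call against Th17 cells ended with DESeq2 and without either Th17 or either Treg library, with adjusted p up to 0.196.

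Among H2B genes, Hist2h2be was at 16.2 and 19.2 CPM in naive, 6.10 and 4.51 in Th17, and 5.38 and 5.19 CPM in Treg libraries. The naive libraries were above the rest, and Th17 and Treg overlapped. It fell by 1.73 ± 0.27 (adjusted p = 6.84e-05) in Th17 and by 1.74 ± 0.27 (adjusted p = 0.000114) in Treg against naive cells on the log2 scale. None of its 50-base stretches is shared with another gene, and no stem-loop match lies in its 2620-base annotated transcript. Hist3h2ba, an H2B gene of the small cluster on chromosome 11, was at 9.43 and 15.6 CPM in naive, 0.482 and 1.34 in Th17, and 1.14 and 1.47 CPM in Treg libraries. It fell by 3.76 ± 0.46 (adjusted p = 7.62e-06) and by 3.24 ± 0.44 (adjusted p = 3.85e-05) on the log2 scale, and without Th17 library 5 the former value was -4.66.

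Among H2A genes, Hist2h2ac had 46 and 66 counts in the naive libraries, 3 and 0 in Th17, and 2 and 0 in Treg libraries. These counts put it 46.5-fold lower in Th17 cells (95% exact interval of counting error 15.5 to 229) and 67.0-fold lower in Treg cells (18.1 to 560) than in naive cells. Left out in turn, the Th17 libraries gave 23.3-fold or at least 23.4-fold, and the Treg libraries 32.7-fold or at least 23.0-fold. Of its 50-base stretches, 55.0% occur in another gene. Hist3h2a, the H2A neighbour of Hist3h2ba, was at 3.75 and 4.91 CPM in naive, 0.214 and 0.537 in Th17, and 2.69 and 1.80 CPM in Treg libraries. It was the clustered gene called higher in Treg than in Th17 cells (2.56 ± 0.56, adjusted p = 0.00214), and it was lower in Th17 than in naive cells (-3.50 ± 0.55, adjusted p = 7.93e-05), while Treg against naive stood at -0.95 (adjusted p = 0.108). Without Th17 library 5 the 2 called values were 3.35 and -4.28. Its exons share 708 bases on the same strand with Trim17, a ubiquitin ligase gene. Trim17 was at 2.52 and 2.70 CPM in naive, 0.482 and 0.645 in Th17, and 2.23 and 1.26 CPM in Treg libraries, the same order as Hist3h2a, and the part of shared reads was not tested.

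Among H4 genes, which encode the same core histone, Hist1h4n had 13 and 66 counts in naive libraries, none in either Th17 library, and 0 and 1 in the Treg libraries. Taken against the floor (3 counts in each library), it was at least 16.8-fold lower in Th17 than in naive cells, and 94.5-fold lower in Treg cells (95% exact interval 16.5 to 3777). Naive library 5 held most of its counts: without it the folds were at least 5.22 in Th17 and 30.1 in Treg cells, and without naive library 1 at least 28.4 and 163. Without 1 Treg library the Treg fold was 48.3 or at least 15.7. Of its 50-base stretches, 85.6% occur in another gene. Hist4h4, the single gene of the cluster on chromosome 6, was at 1.68 and 2.77 CPM in naive libraries and had 2 counts in all in Th17 and 2 in Treg cells, 41.1-fold (10.9 to 346) and 39.5-fold (10.5 to 333) lower. Left out in turn, the Th17 libraries gave 20.5-fold or at least 13.8-fold, and the Treg libraries 19.3-fold or at least 13.6-fold. Hist1h4d was at 2.91 and 5.19 CPM in naive and between 0.107 and 0.491 CPM in the other 4 libraries. Hist1h4i behaved differently from these 3: it was at 3.36 and 12.9 CPM in naive, 7.28 and 3.82 in Th17, and 3.15 and 4.203 CPM in Treg libraries, with overlap everywhere. Its log2 fold changes of -0.55 ± 0.49 in Th17 and -1.14 ± 0.50 in Treg cells did not pass the test (adjusted p = 0.355 and 0.0808). Without naive library 5 they were 0.73 and 0.14.

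Among H3 genes, Hist1h3a was tested. It was at 0.775 and 2.28 CPM in naive, 0.482 and 0.322 in Th17, and 0.343 and 0.382 CPM in Treg libraries. It fell by 1.90 ± 0.69 (adjusted p = 0.0283) in Th17 and by 2.05 ± 0.70 (adjusted p = 0.0286) in Treg cells on the log2 scale, and each call ended in 5 of 11 alternatives, among them DESeq2 and leaving out naive library 5, which put the values at -0.93 and -1.07. Hist1h3e, the next H3 gene by mean level, had 1 and 16 counts in naive, 6 and 10 in Th17, and 5 and 2 in Treg libraries and was not tested.

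Not every clustered gene was highest in naive cells. Of the 37 clustered genes with some counts that were not tested, the mean level was highest in naive cells for 20, in Th17 cells for 15 and in Treg cells for 2. Hist1h2ab, an H2A gene, had 0 counts in both naive libraries, 8 and 11 in Th17, and 2 and 0 in Treg libraries. Hist1h3c, an H3 gene, had 0 counts in both naive libraries, 6 and 7 in Th17, and 5 and 12 in Treg libraries. Both were called higher in Th17 than in naive cells when the filter was dropped, and Hist1h3c also in Treg cells; they were singled out after their values were seen. Summed, the 47 untested genes were at 5.62 and 14.3 CPM in naive, 6.43 and 5.05 in Th17, and 2.98 and 2.95 CPM in Treg libraries, so naive and Th17 overlapped.

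The 2 naive libraries differed from each other in the clusters. Of the 50 clustered genes with a count in naive cells, 45 were higher in library 5 than in library 1, whereas 46.0% of all genes tested were. In Th17 cells 23 of 51 and in Treg cells 24 of 46 were higher in library 5. Of the single variants with a count, 8 of 9 were higher in library 5 in naive, 6 of 10 in Th17 and 10 of 11 in Treg cells. Without naive library 5, 10 clustered genes were lower in Th17 and 12 in Treg than in naive cells.

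By position, the largest cluster, Hist1, holds 54 of the genes on chromosome 13 between 21715763 and 23934851 (mm10). Its sum was 2.43-fold lower in Th17 and 4.33-fold lower in Treg than in naive cells. Hist2, with 10 genes on chromosome 3 between 96219865 and 96270132, was 4.31-fold and 4.19-fold lower. Hist3, the pair Hist3h2a and Hist3h2ba on chromosome 11 between 58948920 and 58956830, was 13.1-fold lower in Th17 (24.2-fold without Th17 library 5) and 4.73-fold lower in Treg cells. Hist4, the gene Hist4h4 on chromosome 6 between 136801553 and 136804415, has the folds given above. The 15 variants lie on 9 chromosomes.

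Single variants moved in both directions. In Th17 against naive cells 5 of the 9 tested were higher and 3 lower, with a median log2 fold change of 0.68. In Treg against naive cells 4 were higher and 2 lower, with a median of 0.52, and in Treg against Th17 cells 3 were higher and 1 lower, with a median of -0.09. Beside the shares given above for all genes (57.7%, 43.4% and 38.4% called), 8, 6 and 4 of 9 were called. Libraries did not overlap in 8 of the 9 genes in each of the 3 comparisons, beside 78.8%, 71.7% and 72.5% of all genes.

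**Figure D4:**
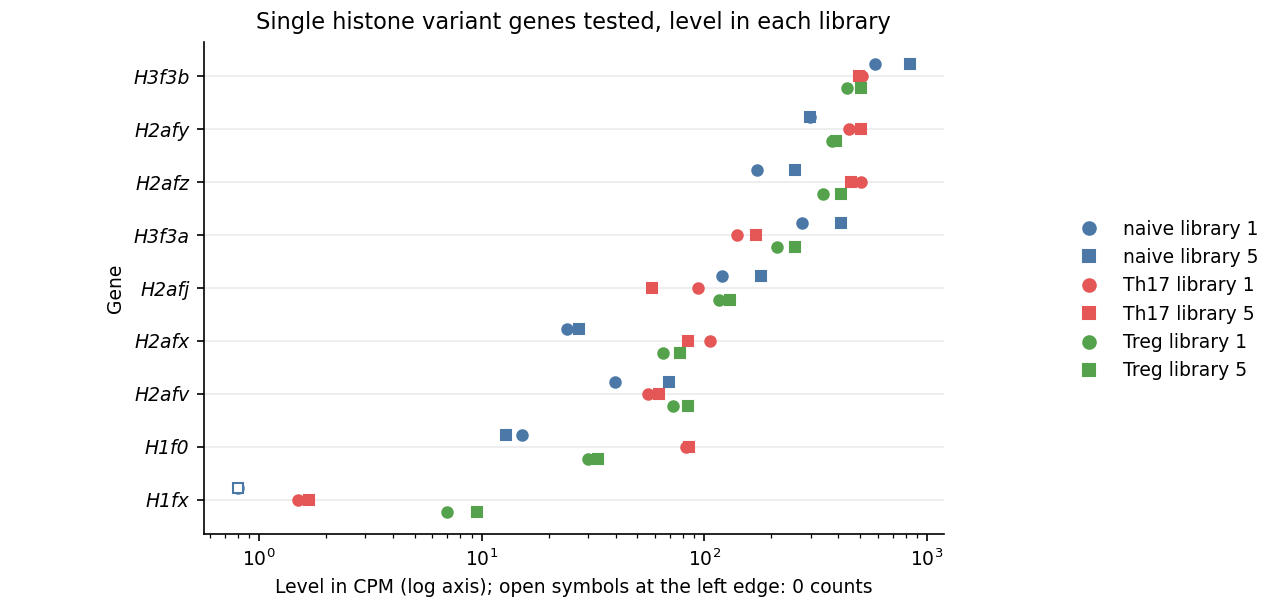
Level in CPM (log axis) of the 9 tested single variants in the 6 libraries, drawn with colour for cell type, circles for library 1, squares for library 5 and open symbols for 0 counts. H1f0, H2afx and H2afz are lowest in the naive libraries, whereas H3f3a and H3f3b are highest there.

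The variant linker histones showed the widest differences. H1f0, a replacement H1 that is abundant in differentiated and resting cells, was at 15.1 and 12.8 CPM in naive, 82.9 and 84.8 in Th17, and 30.1 and 33.3 CPM in Treg libraries. All 3 types were apart from each other. It was higher in Th17 (2.59 ± 0.18, adjusted p = 2.13e-08) and in Treg cells (1.18 ± 0.18, adjusted p = 8.82e-05) than in naive cells, and lower in Treg than in Th17 cells (-1.40 ± 0.17, adjusted p = 1.37e-05). Per length, the mean level of H1f0 in Th17 cells, 40.8 CPM per kb, was above that of Hist1h1c, 6.27 CPM per kb, whereas in naive cells H1f0, at 6.79 CPM per kb, was below Hist1h1c. H1fx, another variant linker histone, had 0 counts in both naive libraries, 28 and 31 in Th17, and 122 and 175 in Treg libraries. Taken against the same floor, Th17 cells were at least 7.89-fold and Treg cells at least 41.2-fold higher than naive cells. Treg cells were above Th17 cells by 2.38 ± 0.39 (adjusted p = 0.000302). An antisense gene, Gm5577, shares 213 exon bases with H1fx and had 2 and 0 counts in naive, 8 and 11 in Th17, and 28 and 55 in Treg libraries. The sources used here do not give whether the counting used strand.

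Among H2A variants, H2afx, whose phosphorylated protein marks DNA breaks and whose transcript is the variant with a stem-loop, was at 24.2 and 27.5 CPM in naive, 105 and 84.2 in Th17, and 65.3 and 77.9 CPM in Treg libraries. It was higher in Th17 (1.88 ± 0.18, adjusted p = 5.5e-07) and Treg cells (1.47 ± 0.18, adjusted p = 1.07e-05) than in naive cells. Treg against Th17 stood at -0.40 ± 0.17 (adjusted p = 0.0733). H2afz, a variant found at promoters, was at 172 and 256 CPM in naive, 504 and 455 in Th17, and 342 and 412 CPM in Treg libraries. It rose by 1.17 ± 0.20 (adjusted p = 0.000211) in Th17 and by 0.82 ± 0.20 (adjusted p = 0.00459) in Treg cells against naive cells, and the latter call ended without Treg library 5 (adjusted p = 0.0581). Of its 50-base stretches, 63.8% occur in another gene, the highest share among the tested variants. H2afv, which encodes a close relative of the H2afz protein, did not pass the test in any comparison, with 39.6 and 69.5 CPM in naive, 56.0 and 62.2 in Th17, and 72.1 and 84.1 CPM in Treg libraries. The ratio of H2afz to H2afv in CPM was 4.33 and 3.68 in naive, 9.01 and 7.31 in Th17, and 4.75 and 4.90 in Treg libraries, so Th17 libraries had the highest ratios and the naive and Treg libraries did not overlap.

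H2afy, which encodes a large H2A variant known from the inactive X chromosome, was at 297 and 297 CPM in naive, 448 and 503 in Th17, and 374 and 391 CPM in Treg libraries. It was higher in Th17 than in naive cells (0.68 ± 0.17, adjusted p = 0.0029), and Treg against naive stood at 0.37 ± 0.17 (adjusted p = 0.0878). H2afj, an H2A variant of mammals, was at 119.9 and 179 CPM in naive, 93.8 and 58.1 in Th17, and 117 and 130.1 CPM in Treg libraries. It was lower in Th17 than in naive cells (-0.97 ± 0.23, adjusted p = 0.00193). It was higher in Treg than in Th17 cells (0.70 ± 0.22, adjusted p = 0.023), a call that ended without Th17 library 5 or without either Treg library, with adjusted p up to 0.248. H2afy2, a paralog of H2afy, had 22 counts over the 6 libraries.

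H3f3a and H3f3b encode the same replacement histone, H3.3, which is put into chromatin independently of DNA replication. H3f3a was at 273 and 409 CPM in naive, 139 and 170.4 in Th17, and 212 and 256 CPM in Treg libraries. Naive libraries were the highest and Th17 the lowest, with no overlap. It fell by 1.14 ± 0.20 (adjusted p = 0.00026) in Th17 and by 0.55 ± 0.20 (adjusted p = 0.0413) in Treg cells on the log2 scale. Treg cells were above Th17 cells by 0.59 ± 0.20 (adjusted p = 0.0313), a call that ended without Th17 library 1 or without either Treg library, with adjusted p up to 0.241. H3f3b was at 584 and 837 CPM in naive, 511 and 493 in Th17, and 437 and 505 CPM in Treg libraries. Its log2 fold changes against naive cells were -0.50 ± 0.20 (adjusted p = 0.0453) in Th17 and -0.59 ± 0.20 (adjusted p = 0.0277) in Treg cells. With scaling by total count, under which the median of all genes was 0.21 (Th17) and 0.17 (Treg) against naive cells, the 2 calls of H3f3b and the Treg call of H3f3a ended, as they did without naive library 5 and without either Treg library. The Th17 call of H3f3b also ended with the size factors of DESeq2 and without either Th17 library, 7 of 11 alternatives in all, with adjusted p up to 0.327. The share of H3f3a in the sum of H3f3a and H3f3b was 31.9% and 32.8% in naive, 21.4% and 25.7% in Th17, and 32.6% and 33.6% in Treg libraries, lowest in both Th17 libraries.

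**Figure D5:**
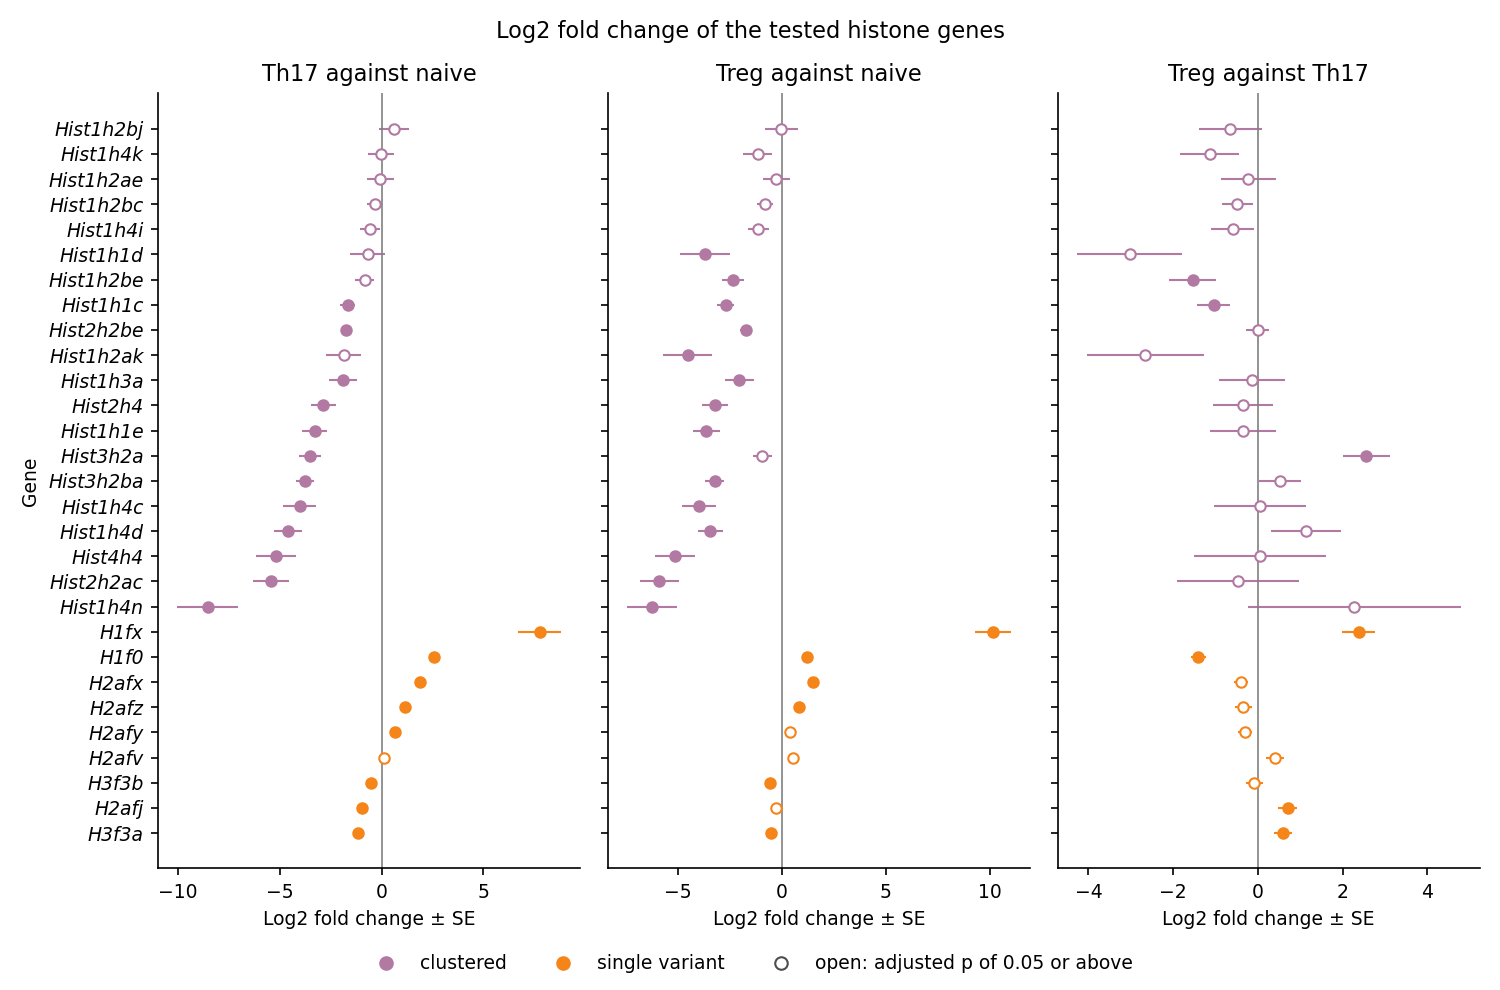
Log2 fold change ± SE of the 29 tested members in each comparison, with filled symbols for an adjusted p under 0.05 and colour for clustered genes or single variants. Against naive cells, the called clustered genes lie left of 0, whereas the called variants lie on both sides; fitted values of Hist1h4n and H1fx rest on a group with no counts and are not bounds.

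Genes that act on histone messages come next, to be read beside the shares of all genes called higher and lower: 29.3% and 28.4% in Th17 against naive, 23.6% and 19.9% in Treg against naive, and 19.0% and 19.4% in Treg against Th17 cells. Of 15 genes for transcription and 3′ end processing of histone messages, 9 were higher and 2 lower in Th17 than in naive cells (median log2 fold change 0.71), 6 and 1 in Treg than in naive cells (0.22), and 1 and 5 in Treg than in Th17 cells (-0.30). Slbp, the protein that binds the stem-loop, was at 49.6 and 62.2 CPM in naive, 118 and 101 in Th17, and 75.9 and 91.8 CPM in Treg libraries. The naive libraries were thus the lowest, and Slbp was higher in Th17 (0.97 ± 0.17, adjusted p = 0.000234) and in Treg cells (0.59 ± 0.17, adjusted p = 0.0132) than in naive cells. Npat, the coactivator of clustered histone transcription, was at 41.3 and 32.6 CPM in naive, 80.3 and 75.7 in Th17, and 45.7 and 57.5 CPM in Treg libraries, and rose in Th17 cells by 1.08 ± 0.18 (adjusted p = 0.000132). Its rise of 0.48 in Treg cells (adjusted p = 0.041) ended without naive 5, Th17 5 or Treg 5, and that of Slbp ended without naive 1 or Treg 5. Ctif, which in human cells helps translate histone messages, rose by 3.57 ± 0.28 in Th17 (adjusted p = 9.02e-08) and 3.17 ± 0.28 in Treg cells (adjusted p = 5.68e-07). Cpsf3, the nuclease that cuts both polyadenylated and histone messages, went the other way, at 137 and 151 CPM in naive, 60.6 and 63.5 in Th17, and 88.7 and 97.5 CPM in Treg libraries. It fell by 1.22 ± 0.15 in Th17 cells (adjusted p = 8.83e-06).

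Chaperones that carry new histones to replicating DNA form the next list. Of 13 genes for deposition coupled to replication, 10 were higher and 1 lower in Th17 than in naive cells (median 0.99, beside 29.3% and 28.4% of all genes), 8 and 2 in Treg than in naive cells (0.78), and 1 and 7 in Treg than in Th17 cells (-0.54). Chaf1a, the large subunit of chromatin assembly factor, was at 1.03 and 1.24 CPM in naive, 145 and 110 in Th17, and 23.3 and 38.6 CPM in Treg libraries, with a log2 fold change of 6.80 ± 0.32 (adjusted p = 3.8e-10) in Th17 and 4.76 ± 0.31 (adjusted p = 2.35e-08) in Treg cells. Chaf1b, the middle subunit, was highest in Treg cells, at 57.2 and 66.4 CPM against 29.4 and 30.7 in Th17 and 15.8 and 14.4 CPM in naive libraries. The histone chaperone Asf1b was at 5.81 and 7.40 CPM in naive, 89.3 and 89.1 in Th17, and 25.6 and 32.8 CPM in Treg libraries, and its paralog Asf1a at 21.4 and 29.0 CPM in naive, 16.2 and 16.2 in Th17, and 14.8 and 18.8 CPM in Treg libraries. Asf1b was higher in Th17 cells by 3.76 ± 0.21 (adjusted p = 2.28e-09), whereas Asf1a was lower by -0.64 ± 0.22 (adjusted p = 0.0226), a call that ended with scaling by total count and in 3 of the 6 fits without a library.

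Factors that place variants were listed by the variant they act on. Of 6 genes for H3.3 deposition, 2 were higher and 1 lower in Th17 than in naive cells (median 0.10), where 33.3% higher stands beside 29.3% of all genes: Hira at 0.71 ± 0.21 (adjusted p = 0.0102), Cabin1 at 0.56 ± 0.19 (adjusted p = 0.02) and Daxx at -0.80 ± 0.15 (adjusted p = 0.000344). The calls of Hira and Cabin1 ended without Th17 library 1, and that of Cabin1 also without naive library 5. In Treg against naive cells edgeR called 0 higher (2 at an unadjusted p under 0.05, 0 with DESeq2) and 1, Daxx, lower, a call that ended in 8 of 11 alternatives. In Treg against Th17 cells it called 0 of the 6 (1 higher and 0 lower at an unadjusted p under 0.05, 0 with DESeq2). Of 10 genes for exchange of H2A variants, 4 were higher and 1 lower in Th17 than in naive cells, 2 and 1 in Treg than in naive cells, and 1 and 3 in Treg than in Th17 cells. Anp32e, the chaperone that removes the H2afz protein, was at 159 and 201 CPM in naive, 456 and 363 in Th17, and 180.3 and 212 CPM in Treg libraries, highest in Th17 cells (1.19 ± 0.19, adjusted p = 7.84e-05). Of 5 genes of the centromeric histone and its loading, all 5 were higher in Th17 than in naive cells, 2 were higher in Treg than in naive cells, and all 5 were lower in Treg than in Th17 cells. Cenpa, the centromeric H3 variant, was at 45.2 and 39.4 CPM in naive, 178 and 194 in Th17, and 39.7 and 63.8 CPM in Treg libraries, so naive and Treg cells overlapped.

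Promoters of the members were read from RefSeq (GRCm38.p6), from 250 bases before to 50 after the annotated start, and were found for 62 of 67 clustered genes and 14 of 15 variants. Short motifs known from histone promoters were searched on both strands: the CCAAT box, the TATA box (TATAAA), the octamer bound by POU factors (ATTTGCAT), the cell cycle element TTTGAA and an E2F site (TTTNNCGC). Matches of different motifs may overlap. Windows of several neighbouring H2A and H2B genes on opposite strands also overlap, so 1 match can count for both genes. An example is the octamer of Hist1h2ae (chr13:23571171-23571470) and Hist1h2bg (chr13:23571150-23571449). The shares of clustered promoters below therefore do not rest on wholly separate sequences. The RefSeq start lay up to 3458 bases from the gene start in the count table (H3f3b), with Hist1h1d at 1770 and H2afy at 811 bases. The CCAAT box was in 85.5% of clustered and 71.4% of variant promoters, against 37.4% of all 32851 promoters. The TATA box was in 56.5% of clustered promoters, 1 of 14 variant promoters (H3f3b) and 13.6% of all. The octamer was in 13 of the 62 clustered promoters against 1.74% of all, and lay in those of H2A (7 of 18) and H2B (6 of 16) but in none of the 6 H1, 10 H3 and 12 H4 promoters. TTTGAA was in 46.8% of clustered promoters against 17.9% of all, and the E2F site in 30.6% against 5.17%. Of the 14 variant promoters, 1 held the octamer (H3f3b), 3 held TTTGAA and 0 held the E2F site. By family, the CCAAT box was in all 50 matched H1, H2A, H2B and H3 promoters and in 3 of the 12 of H4. Shown here are Hist2h2ac and Hist1h4n, which had among the lowest counts in Th17 and Treg cells of the 20 tested clustered genes and differ in these motifs, and H2afz, a variant with the opposite change. Capitals mark matches to any of the motifs on either strand.
Hist2h2ac, chr3:96220831-96221130, minus strand: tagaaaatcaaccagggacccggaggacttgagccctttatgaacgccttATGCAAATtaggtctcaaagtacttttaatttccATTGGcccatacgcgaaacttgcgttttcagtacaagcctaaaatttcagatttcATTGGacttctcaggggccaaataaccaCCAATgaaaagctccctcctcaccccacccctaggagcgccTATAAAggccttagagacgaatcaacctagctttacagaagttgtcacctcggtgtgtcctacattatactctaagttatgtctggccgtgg
Hist1h4n, chr13:21832148-21832447, minus strand: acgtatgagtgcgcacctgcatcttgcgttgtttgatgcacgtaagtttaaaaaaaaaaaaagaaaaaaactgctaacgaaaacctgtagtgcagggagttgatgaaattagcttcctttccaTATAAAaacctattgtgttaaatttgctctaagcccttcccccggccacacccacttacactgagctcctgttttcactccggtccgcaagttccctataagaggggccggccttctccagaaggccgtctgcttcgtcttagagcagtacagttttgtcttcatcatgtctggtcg
H2afz, chr3:137864237-137864536, plus strand: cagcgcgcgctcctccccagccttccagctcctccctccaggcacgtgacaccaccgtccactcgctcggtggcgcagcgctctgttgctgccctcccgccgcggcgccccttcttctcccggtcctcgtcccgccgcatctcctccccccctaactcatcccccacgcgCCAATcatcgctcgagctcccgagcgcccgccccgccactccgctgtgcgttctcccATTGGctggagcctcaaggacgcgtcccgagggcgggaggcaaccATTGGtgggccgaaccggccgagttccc
The Hist2h2ac window holds an octamer, 3 CCAAT boxes and a TATA box, that of Hist1h4n a TATA box and no CCAAT box, and that of H2afz 3 CCAAT boxes and no TATA box. A match describes the letters in this window and was not tested as a binding site.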

How the data were processed

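Per the labels' protocols, total RNA was purified on RNeasy Micro columns and SMARTER mRNA libraries were prepared from it. Tools named without versions, per the submitters' processing notes, are STAR, cutadapt and DESeq2, with the build mm10. The sources used here do not give the counting tool, the use of strand or the treatment of reads that fit several genes. The authors deposited raw whole-number counts for each gene in each library, with gene length and coordinates in the same table. Its 6 columns of FPKM values were not used. Column names carry a cell type and the number 1 or 5, while sample titles carry other numbers, so columns were matched to cell types only.

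All 6 libraries entered 1 fit with a mean for each type (3 residual degrees of freedom), in edgeR 4.0.16 under R 4.3.3 (quasi-likelihood test on TMM-scaled counts, filterByExpr at a minimum of 10, Benjamini-Hochberg adjustment over 15543 genes). SE is approximate, from the log2 fold change and the square root of F, and is rough near 0 counts. A floor of 3 counts per library averages 0.201 CPM (naive), 0.161 CPM (Th17) and 0.168 CPM (Treg), and floors and 95% intervals cover counting error only. List medians were the same with genes at 0 counts set to their bound. Medians, sums and motif shares are descriptions without a test. The fit was tested on simulated data. Alternatives were size factors of DESeq2, scaling by total count, no filter, the DESeq2 1.42.0 test, a replicate block and leaving out each library.

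Text names every tested variant, the 2 most abundant clustered genes of each family, the 3 with the largest called change per comparison and direction, and the called list genes with the largest changes; other clustered genes are named as counts of calls. Members, lists and this rule were chosen with earlier results of these data known. The limit of 100 bases past the stem-loop, the 50-base stretches, the motifs and leaving out libraries for sums by cluster and for folds from counts were chosen after the files were seen. Stem-loops were read from GENCODE M21 transcripts and promoters from RefSeq (GRCm38.p6), where 76 of 82 members matched. Numbers 1 and 5 were not used to pair the libraries in the main fit. Whether they mark a pairing cannot be told, as the closing section gives.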

Additional observations from a re-analysis of the deposited data

How the results depend on the processing

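Most values kept their direction and side of the threshold: of 690 values of named histone genes under the alternatives, 619 did, 42 lost and 15 gained a call, and 14 changed sign, none of them called. Of 1012 values of list genes with a call, 934 kept it and 78 lost it. Of 396 counts of list genes called under the alternatives, 343 stayed within 1.5 times of the main count. Without the filter, 2 clustered genes were higher in Th17 and 1 in Treg than in naive cells, and 2 were higher and 4 lower in Treg than in Th17 cells. With the DESeq2 test 1 clustered gene was lower in Treg than in Th17 cells. With scaling by total count, 0 variants were lower in Treg than in naive cells and 2 were lower in Treg than in Th17 cells. It also put the clusters' sum at 27.4 CPM in Treg and the variants' sum at 2063 CPM in Th17 cells, and the size factors of DESeq2 put the latter at 1957 CPM. The cause was not tested.

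Leaving out 1 library, clustered genes called higher ranged from 0 to 2 and lower from 10 to 18 in Th17 against naive cells, from 0 to 1 and 12 to 19 in Treg against naive cells, and from 1 to 2 and 0 to 2 in Treg against Th17 cells. Variants called lower ranged from 0 to 2 in Treg against naive cells, and those higher from 1 to 4 in Treg against Th17 cells. Over all genes, those lower in Treg than in naive cells ranged from 1827 to 2976 and those higher in Treg than in Th17 cells from 1961 to 3265. More genes pass the filter in these fits, so their counts of calls cannot be set directly beside those of the main fit. Signs changed without naive 5 for H2afj (from -0.53 to 0.053) and Hist1h4i (-1.81 to 0.14) in Treg and for Hist1h4i (-1.22 to 0.73) in Th17 against naive cells, and without naive 1 for H2afv in Th17 against naive cells (-0.24 to 0.58), where the values are the lowest and highest log2 fold changes over these fits. In Treg against Th17 cells they changed without Th17 1 for Hist2h2ac (-3.59 to 3.10), Hist2h2be (-0.21 to 0.23), Hist3h2ba (-0.034 to 1.43), Hist1h3a (-0.40 to 0.17) and Hist4h4 (-3.06 to 3.10), without Treg 1 for H3f3b (-0.21 to 0.016), Hist1h1e (-0.89 to 0.033) and Hist4h4, and without Treg 5 for Hist2h2ac and Hist2h2be.

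Libraries with the same number deviated together with a correlation of 0.0174 (naive and Th17), 0.214 (naive and Treg) and 0.0593 (Th17 and Treg). With 2 libraries per type and no value known for paired libraries, these cannot tell whether the number marks a pairing. A replicate block left the clustered genes at 0 higher and 12 lower in Th17 and 0 and 14 in Treg against naive cells. It moved no count of calls over all genes, clustered genes or variants by over 1.5 times, but did move 2 counts of list genes. It also gave H2afv a call in Treg against naive cells (0.55, adjusted p = 0.0191). With 2 libraries per type, genes near 0 counts carry errors as large as their fold changes between Th17 and Treg cells.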
